A study of Homo sapiens with 6 samples.

Results

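The plasma carrier proteins described here are 9 secreted liver proteins that bind and transport small ligands in blood, or that derive from the same secreted group, and their genes are ALB, TTR, TF, RBP4, GC, AHSG, FETUB, AMBP and A1BG. The genes were chosen by name for their known role, with earlier results of these data known, and were found by symbol. All 9 are among the 26184 genes and loci of the table, of which 19974 are annotated genes. RNA-seq of poly(A) RNA compared Huh7 P, the parental human hepatocellular carcinoma line (wild type, untreated, n = 3 samples), with Huh7 LR (n = 3 samples), a lenvatinib resistant line grown out of it over 10 months in lenvatinib, with doses from 1 μM up to 20 μM. Huh7 LR is 1 derived line that was kept in 20 μM lenvatinib, and the medium of the plates used for RNA is not described further, so the effects of selection and of the drug itself cannot be told apart. The counts assigned to genes totalled between 62738937 and 71427573 in the Huh7 P libraries (median 66961548) and between 63233655 and 70768720 in the Huh7 LR libraries (median 67284160).

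Hepatocytes secrete most of the proteins of blood plasma, and many of these keep poorly soluble or reactive ligands, such as fatty acids, retinol, thyroid hormone, iron and vitamin D, in solution and out of the urine. Their genes are transcribed mainly in the liver under a shared set of hepatocyte transcription factors, among them the HNF4, forkhead and C/EBP proteins. In the fetal liver and in many hepatocellular carcinomas the related gene AFP is active beside or in place of ALB.

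The plasma carriers were mostly higher in Huh7 LR. Of the 9 genes, 8 were higher at an adjusted p under 0.05 by edgeR's quasi-likelihood test after Benjamini-Hochberg adjustment, a level that 23.3% of the 17531 genes and loci tested reached upwards and 22.4% downwards. With the stricter call used below, an adjusted p under 0.001 and a change of more than 2-fold, 2 of the 9 genes (GC and AHSG) were called higher, beside 4.43% of all genes tested. None of the 9 was called lower by edgeR or by DESeq2, beside 1.78% of all genes tested with the same call in edgeR. No member was lower at an unadjusted p under 0.05 either. The median log2 fold change of the 9 genes was 0.74, against 0.00 over all genes tested. Since the list was chosen with earlier results of these data known, these comparisons describe it and do not test it. In CPM (counts scaled to library size and by edgeR's TMM factors), all 3 Huh7 LR libraries lay above all 3 Huh7 P libraries for 8 of the 9 genes, a pattern that 28.2% of all genes tested showed. The exception to both the adjusted p under 0.05 and the separation of the libraries was A1BG, which was close to the limit of detection. In bulk RNA, more cells that express a gene and more RNA of it per cell cannot be told apart.

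Together, the 9 genes took 1.81%, 1.97% and 2.05% of all counts in Huh7 P 1 to 3 and 3.34%, 3.04% and 3.26% in Huh7 LR 1 to 3. Per transcript length, as the authors' FPKM values, the mean levels ran in the same order in both lines: ALB, AMBP, RBP4, TTR, TF, AHSG, GC, FETUB and A1BG. AHSG and GC overlapped in their FPKM values over the 3 Huh7 P libraries, as did FETUB and A1BG, although within each Huh7 P library AHSG stood above GC and FETUB above A1BG. Abundant genes as a whole leaned the other way. Among the 296 genes with a mean of at least 400 CPM, 19.3% were higher at an adjusted p under 0.05 by edgeR's quasi-likelihood test after Benjamini-Hochberg adjustment and the median log2 fold change was -0.15, whereas the 5 carriers in that range (ALB, TF, AMBP, RBP4 and TTR) were all higher.

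**Figure D1:**
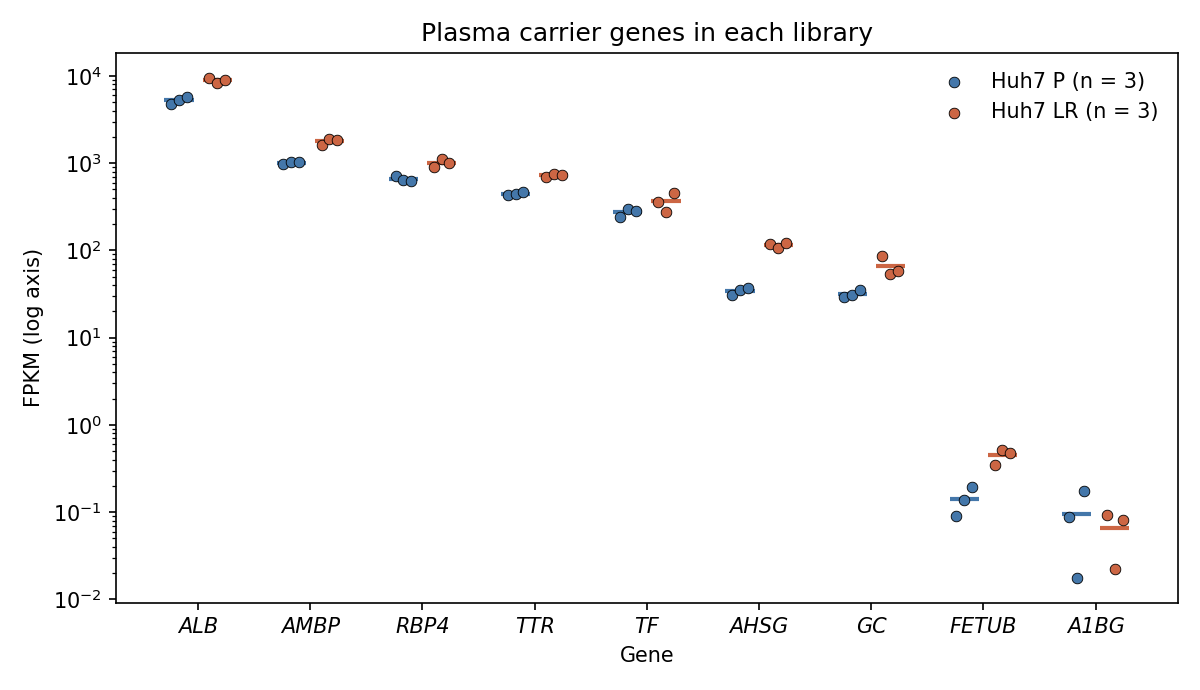
FPKM of the 9 plasma carrier genes (log axis) in each of the 3 Huh7 P and 3 Huh7 LR libraries, where points are libraries and short lines are group means. ALB reached 8318 to 9463 FPKM in Huh7 LR, while FETUB and A1BG stayed under 1 FPKM in every library.

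ALB (ENSG00000163631, GRCh38 chr4:73397114-73421412, plus strand) encodes albumin, the main protein of plasma, which carries fatty acids, bilirubin and many drugs. Its deposited counts were 838688, 810114 and 917871 in Huh7 P 1 to 3 and 1476557, 1420162 and 1485369 in Huh7 LR 1 to 3. As FPKM, these were 4792, 5320 and 5656 in Huh7 P 1 to 3 and 9463, 8318 and 9013 in Huh7 LR 1 to 3. No Huh7 LR library was as low as any Huh7 P library, and the gap between the groups was wider than the range within either. ALB rose 1.67-fold (95% interval 1.49 to 1.87, log2 fold change 0.74, SE 0.08, edgeR's quasi-likelihood test, Benjamini-Hochberg adjusted p = 4.69e-05). The change did not reach 2-fold, so ALB was not among the called genes. By mean FPKM among the 19974 annotated genes, ALB ranked 7 in Huh7 P and 2 in Huh7 LR. In Huh7 LR, only the mitochondrial gene MT-CO1 was higher among them. ALB alone took 1.17% to 1.37% of all counts in Huh7 P and 2.01% to 2.34% in Huh7 LR.

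**Figure D2:**
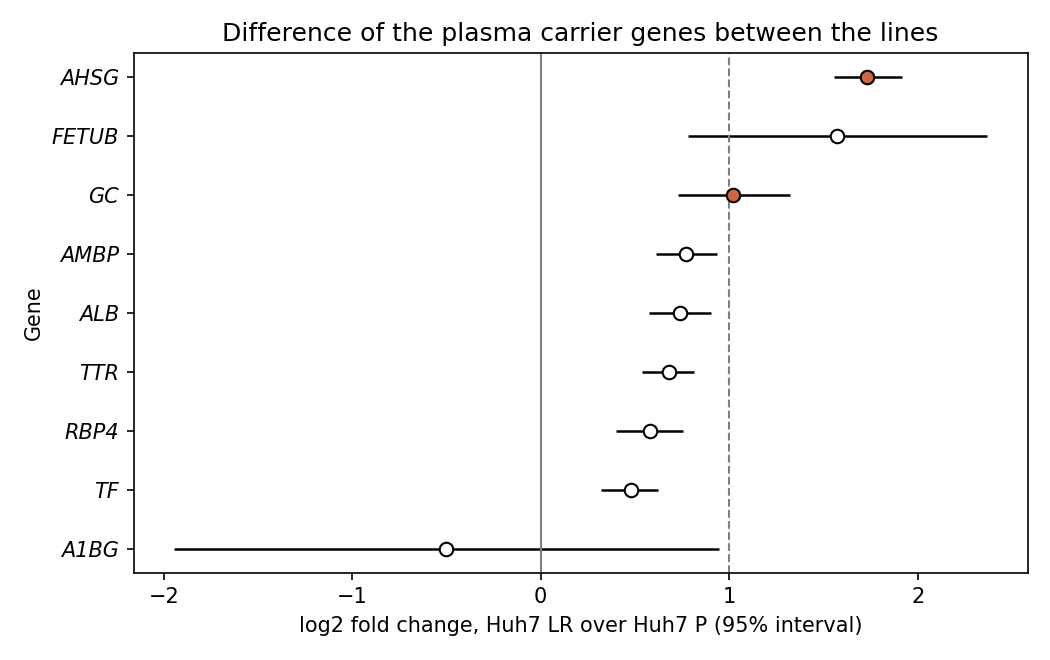
Log2 fold change of Huh7 LR over Huh7 P for each plasma carrier gene, with its 95% interval as a horizontal line; filled points mark the 2 called genes, the solid vertical line the median of all genes tested (0.00) and the dashed line a 2-fold change. The intervals of 8 genes lie above 0, and that of A1BG runs from a fold of 0.26 to 1.93.

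The window from 250 bases before to 50 bases after the RefSeq start of a gene was taken from RefSeq (GRCh38.p14), and 7 of the 9 genes had at least 1 window, while TTR and GC had none. The ALB window (chr4:73404037-73404336, plus strand) is shown because ALB is the most abundant of the carriers and its promoter is the textbook example of hepatocyte transcription. Capitals mark matches, on either strand, to 5 motifs: the core TTNNGNAA of C/EBP and PAR bZIP factors, the forkhead core TGTTTNC, an HNF4 site CAAAGTCCA, the CCAAT box and the TATA box TATAAA.
ALB: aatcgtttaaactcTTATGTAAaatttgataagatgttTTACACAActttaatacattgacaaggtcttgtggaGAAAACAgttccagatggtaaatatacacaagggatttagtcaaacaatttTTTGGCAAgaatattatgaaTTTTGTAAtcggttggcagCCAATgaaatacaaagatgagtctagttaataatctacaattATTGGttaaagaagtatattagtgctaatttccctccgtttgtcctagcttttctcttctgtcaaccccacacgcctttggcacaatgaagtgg

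The ALB window held 7 matches, none of which overlapped. They were 4 matches to TTNNGNAA, 2 CCAAT boxes and 1 forkhead core. Of the 35116 windows of this length searched in the same way, without those of chromosome 8, 36.8% held TTNNGNAA, 34.6% a CCAAT box and 18% the forkhead core. These matches describe the letters of the window and were not tied to any measurement of binding.

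AFP (ENSG00000081051), the fetal relative of albumin and a serum marker of hepatocellular carcinoma, starts 34024 bases from ALB on the same strand, by the GENCODE 29 annotation. Its FPKM was 7318, 8490 and 9674 in Huh7 P 1 to 3 and 6956, 7458 and 7754 in Huh7 LR 1 to 3, so the groups overlapped. The log2 fold change of AFP was -0.23 (SE 0.10, edgeR's quasi-likelihood test, Benjamini-Hochberg adjusted p = 0.0923). This adjusted p depended on 1 library and on the model. Without Huh7 P 1 the log2 fold change was -0.33 and the adjusted p by the same edgeR test after Benjamini-Hochberg adjustment was 0.00992. With all libraries and the replicate number as a block in that edgeR test, the values were -0.22 and 0.0221. Over all alternatives tried for AFP, the adjusted p ran from 0.00992 to 0.351 and the log2 fold change was below 0 in each. AFM, which encodes the vitamin E binding protein afamin, starts 84569 bases from ALB and was low, with 58 to 107 counts per library and overlapping groups.

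Within each library, the FPKM of ALB divided by that of AFP was 0.655, 0.627 and 0.585 in Huh7 P 1 to 3 and 1.36, 1.12 and 1.16 in Huh7 LR 1 to 3. AFP thus stood above ALB in every Huh7 P library, and ALB above AFP in every Huh7 LR library. The mean ratio was 0.622 ± 0.0353 (SD, n = 3) in Huh7 P and 1.21 ± 0.13 (SD, n = 3) in Huh7 LR. For a single value such as this ratio, an exact permutation test on 3 against 3 samples cannot give a two-sided p under 0.1. The ratio was not tested and is given as values only. Of the 8 other tested genes whose start lies within 500000 bases of that of ALB, 1 was higher (the chemokine gene CXCL1) and 1 lower (ANKRD17) at an adjusted p under 0.05 by edgeR's quasi-likelihood test after Benjamini-Hochberg adjustment, no larger a share than the 23.3% and 22.4% of all genes tested, and their median log2 fold change was -0.04.

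**Figure D3:**
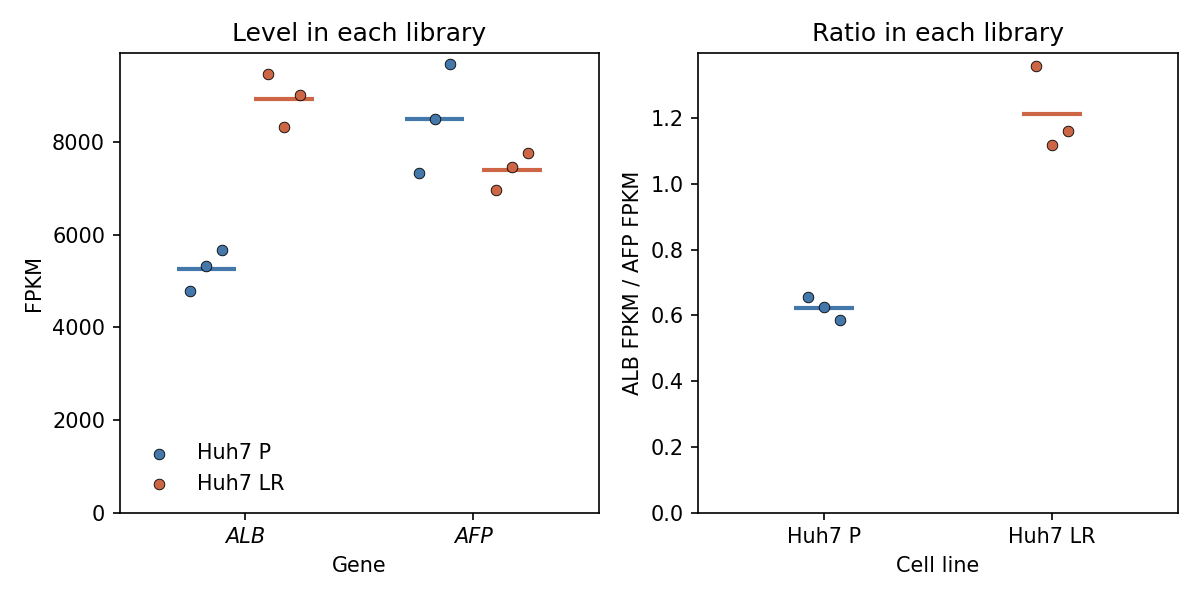
Left, FPKM of ALB and AFP in each library; right, ALB FPKM divided by AFP FPKM in each library, with points for the 3 libraries of each line and short lines for the means. The ratio lies between 0.585 and 0.655 in Huh7 P and between 1.12 and 1.36 in Huh7 LR.

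TTR and RBP4 work together: RBP4 carries retinol from the liver, and transthyretin, the product of TTR, binds RBP4 and also carries thyroxine. TTR (ENSG00000118271, chr18:31557010-31599021, plus strand) had FPKM values of 431, 448 and 462 in Huh7 P 1 to 3 and 694, 761 and 729 in Huh7 LR 1 to 3. RBP4 (ENSG00000138207, chr10:93591687-93601744, minus strand) had 720, 641 and 632 FPKM in Huh7 P 1 to 3 and 900, 1116 and 1010 FPKM in Huh7 LR 1 to 3. Both genes were higher in each Huh7 LR library than in any Huh7 P library. TTR rose 1.6-fold (95% interval 1.45 to 1.76, edgeR's quasi-likelihood test, Benjamini-Hochberg adjusted p = 2.67e-05) and RBP4 1.49-fold (95% interval 1.32 to 1.69, adjusted p = 0.000432 by the same test). The ratio of TTR to RBP4 by FPKM overlapped between the lines, with a mean of 0.676 ± 0.0692 (SD, n = 3) in Huh7 P and 0.725 ± 0.0446 (SD, n = 3) in Huh7 LR. Among neighbours within 500000 bases, 3 of 6 tested around TTR were lower, and around RBP4 1 of 7 was higher and 2 were lower, past an adjusted p of 0.05 by edgeR's quasi-likelihood test after Benjamini-Hochberg adjustment, beside 23.3% higher and 22.4% lower over all genes tested.

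TF (ENSG00000091513, chr3:133745956-133796640, plus strand) encodes transferrin, which carries ferric iron to cells. Its counts were 242665, 241183 and 257040 in Huh7 P 1 to 3 and 338016, 359691 and 361137 in Huh7 LR 1 to 3. TF rose 1.39-fold in counts (95% interval 1.25 to 1.54, log2 fold change 0.48, SE 0.08, edgeR's quasi-likelihood test, Benjamini-Hochberg adjusted p = 0.000456). In CPM the groups were apart, at 3381 to 3930 in Huh7 P and 5133 to 5292 in Huh7 LR. In the authors' FPKM they were not: the values were 239, 302 and 284 in Huh7 P 1 to 3 and 362, 279 and 452 in Huh7 LR 1 to 3, and Huh7 LR 2 fell among the Huh7 P libraries. On log2(FPKM + 0.1), limma-trend gave a log2 fold change of 0.38 with a Benjamini-Hochberg adjusted p of 0.0699, which missed 0.05. Over all alternatives tried for TF, the adjusted p ran from 4.59e-09 to 0.0699.

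The difference between the scales of TF lay in the length that its FPKM implies. A count divided by the library total and by the FPKM gives the transcript length behind that FPKM, here with each library scaled by its median over genes. For TF this length was 14140, 12781 and 13565 bases in Huh7 P 1 to 3 and 14584, 18433 and 11797 bases in Huh7 LR 1 to 3. The highest was 1.56 times the lowest, a spread larger than in 99.1% of the 9372 annotated genes that were tested, had a mean of at least 10 CPM and had an FPKM above 0 in every library, whose median was 1.03. Other carriers above 10 CPM kept a nearly fixed length, such as 2433 to 2439 bases for ALB. TF shares 112 exon bases with SRPRB and 191 with the pseudogene TFP1 on the same strand, and its annotated exons cover 26199 bases in all. Its FPKM is therefore divided by a much longer length than that of the other carriers, and its place in the order of FPKM depends on that length. What makes the length vary between libraries was not tested.

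**Figure D4:**
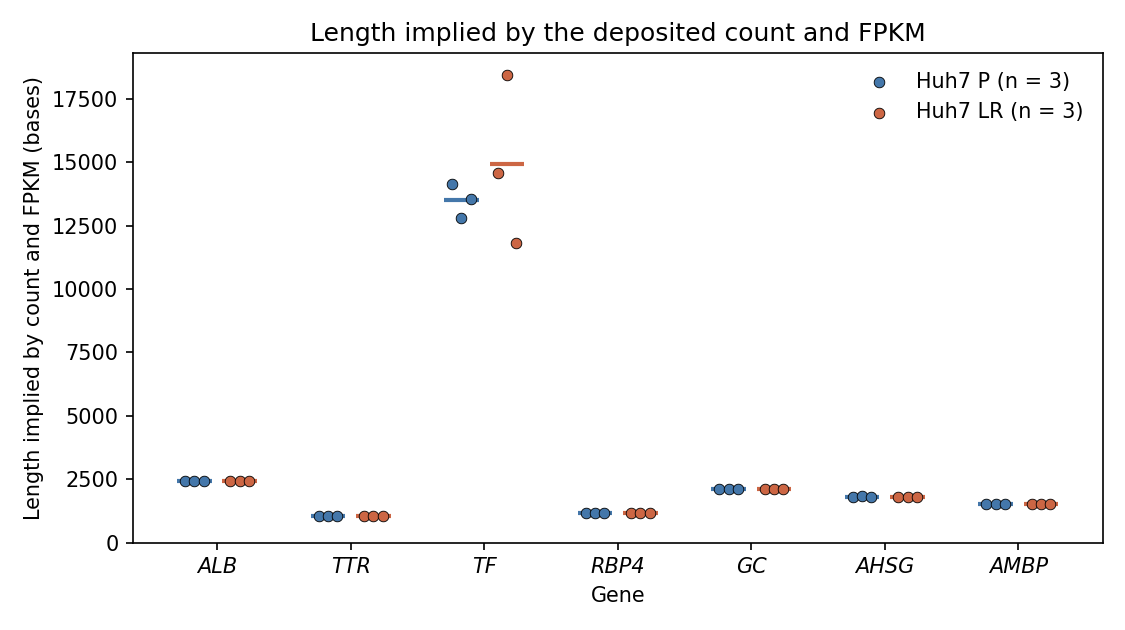
Transcript length in bases implied by the deposited count and FPKM of the 7 plasma carrier genes above 10 CPM, in each of the 3 Huh7 P and 3 Huh7 LR libraries, with points for libraries and short lines for means. TF ranges from 11797 to 18433 bases, and each of the other genes keeps within 1.01 times its own lowest value.

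GC (ENSG00000145321, chr4:71741693-71804041, minus strand), which belongs to the albumin family, encodes the vitamin D binding protein, a carrier of vitamin D metabolites that also binds actin. Its counts were 4436, 4147 and 4980 in Huh7 P 1 to 3 and 11758, 8038 and 8344 in Huh7 LR 1 to 3. As FPKM, these were 29.1, 31.2 and 35.2 in Huh7 P 1 to 3 and 86.4, 54.0 and 57.9 in Huh7 LR 1 to 3. The groups did not overlap, and Huh7 LR 1 stood well above the other Huh7 LR libraries. GC rose 2.03-fold (95% interval 1.66 to 2.50, log2 fold change 1.02, SE 0.15, edgeR's quasi-likelihood test, Benjamini-Hochberg adjusted p = 0.000268). This call rested on single libraries, and it was also lost with the replicate number as a block, where the log2 fold change of 1.00 lay just under 2-fold. Without Huh7 LR 1 the log2 fold change was 0.79, under 2-fold, and without Huh7 P 1, Huh7 P 2 or Huh7 P 3 the adjusted p by edgeR's quasi-likelihood test after Benjamini-Hochberg adjustment was 0.00258, 0.00225 or 0.0014. In every alternative tried, GC stayed higher in Huh7 LR, with an adjusted p of at most 0.00258. No tested gene started within 500000 bases of GC.

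AHSG and FETUB encode the fetuins, relatives of the cystatins. AHSG, or fetuin-A, binds calcium phosphate in blood and hinders calcification of soft tissue, and FETUB, or fetuin-B, inhibits a protease of the egg coat. AHSG (ENSG00000145192, chr3:186612923-186621318, plus strand) had 3973, 3967 and 4471 counts in Huh7 P 1 to 3 and 13848, 13460 and 15059 counts in Huh7 LR 1 to 3. As FPKM, these were 30.7, 35.0 and 37.4 in Huh7 P 1 to 3 and 120, 107 and 123 in Huh7 LR 1 to 3. The lowest Huh7 LR library was far above the highest Huh7 P library, and each group was tight. AHSG rose 3.33-fold (95% interval 2.94 to 3.77, log2 fold change 1.73, SE 0.09, edgeR's quasi-likelihood test, Benjamini-Hochberg adjusted p = 2.94e-07), and it was the only one of the 9 genes called in every alternative tried. Its rank by mean FPKM among annotated genes moved from 1924 in Huh7 P to 439 in Huh7 LR.

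The AHSG window (chr3:186612810-186613109, plus strand, GRCh38.p14) is shown because AHSG had the firmest call among the carriers. It held 4 matches to the same motifs, in capitals: an HNF4 site, which 0.384% of all windows held, 2 forkhead cores and 1 match to TTNNGNAA.
AHSG: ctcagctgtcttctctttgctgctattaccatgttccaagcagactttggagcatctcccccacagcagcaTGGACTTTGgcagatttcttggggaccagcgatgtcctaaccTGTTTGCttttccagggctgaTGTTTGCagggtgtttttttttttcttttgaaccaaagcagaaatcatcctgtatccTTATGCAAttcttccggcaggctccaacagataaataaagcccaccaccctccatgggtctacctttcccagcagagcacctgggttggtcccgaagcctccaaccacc

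FETUB (ENSG00000090512, chr3:186635969-186653141, plus strand) starts 23046 bases from AHSG and was very low. Its counts were 10, 16 and 21 in Huh7 P 1 to 3 and 35, 65 and 46 in Huh7 LR 1 to 3. The groups were apart, and FETUB was 2.98-fold higher in Huh7 LR (95% interval 1.72 to 5.16, log2 fold change 1.57, SE 0.41, edgeR's quasi-likelihood test, Benjamini-Hochberg adjusted p = 0.00845), which did not meet the call. By FPKM, AHSG stood above FETUB by a factor of 194 to 343 in the Huh7 P libraries and 205 to 341 in the Huh7 LR libraries, with no separation of the lines. FETUB shares 84 exon bases with an antisense gene, and the counting is not stated to use strand.

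The same stretch of chromosome 3 holds the other type 3 cystatins HRG and KNG1. KNG1, which encodes the kininogens, precursors of bradykinin, had 19.4, 22.1 and 22.7 FPKM in Huh7 P 1 to 3 and 111, 108 and 113 FPKM in Huh7 LR 1 to 3. These groups were far apart, and KNG1 was called higher, with a rise of 5.26-fold (95% interval 4.67 to 5.93, edgeR's quasi-likelihood test, Benjamini-Hochberg adjusted p = 3.43e-08). HRG, which encodes histidine-rich glycoprotein, had 2, 7 and 6 counts in Huh7 P 1 to 3 and 8, 10 and 26 in Huh7 LR 1 to 3 and was below the filter on low counts. Of the 9 tested neighbours within 500000 bases of AHSG, 4 were higher (FETUB, KNG1, EIF4A2 and ST6GAL1) and 1 lower (RFC4) at an adjusted p under 0.05 by edgeR's quasi-likelihood test after Benjamini-Hochberg adjustment (23.3% and 22.4% of all genes tested), and their median log2 fold change was 0.00. Beside FETUB and KNG1, the log2 fold changes were 0.43 for EIF4A2, 0.18 for ST6GAL1, 0.00 for TBCCD1 and -0.06 for DNAJB11. They were -0.40 for RFC4, -0.50 for CRYGS and -0.56 for AC068631.2.

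AMBP (ENSG00000106927, chr9:114060127-114078472, minus strand) encodes a precursor that is cleaved into alpha-1-microglobulin, a heme and radical binding lipocalin, and bikunin, the light chain of the inter-alpha-inhibitors. Its FPKM was 985, 1042 and 1024 in Huh7 P 1 to 3 and 1599, 1882 and 1848 in Huh7 LR 1 to 3. All Huh7 LR libraries were above all Huh7 P libraries, with Huh7 LR 1 the lowest of its group. AMBP rose 1.71-fold (95% interval 1.53 to 1.91, log2 fold change 0.77, SE 0.08, edgeR's quasi-likelihood test, Benjamini-Hochberg adjusted p = 2.82e-05). The acute phase genes ORM1 and ORM2 lie within 500000 bases of it and had log2 fold changes of -0.16 and -0.26, neither past an adjusted p of 0.05 in edgeR's test, and as near-identical copies they may share reads.

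The family of inter-alpha-inhibitor heavy chain genes, of which some, though not ITIH4, encode proteins that bikunin joins, did not move as 1 group. Of the 5 family genes tested, ITIH1 was called higher (log2 fold change 2.02, from a mean of 3.48 to 14.1 CPM). The same call was reached by 4.43% of all genes tested. ITIH2 was by far the most abundant per length, with means of 373 FPKM in Huh7 P and 289 FPKM in Huh7 LR. It was lower in Huh7 LR (log2 fold change -0.40, edgeR's quasi-likelihood test, Benjamini-Hochberg adjusted p = 0.00101). Over all genes tested, 23.3% passed an adjusted p of 0.05 upwards and 22.4% downwards in that test. Beside these shares, 1 gene of the 5 each way says little about the family. The FPKM of ITIH2 was 350, 375 and 394 in Huh7 P 1 to 3 and 292, 281 and 293 in Huh7 LR 1 to 3, with every Huh7 LR library below every Huh7 P library. The light chain precursor AMBP and the most abundant heavy chain transcript ITIH2 thus differed between the lines in opposite directions, the first upwards and the other downwards. The median log2 fold change of the 5 genes was 0.92, which is the value of ITIH4, a gene with overlapping groups and 1 of 3 among the 5 tested that were under 0.5 CPM in both means.

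A1BG (ENSG00000121410, chr19:58345178-58353499, minus strand) encodes alpha-1-B glycoprotein, a plasma protein of the immunoglobulin superfamily. It had 10, 3 and 22 counts in Huh7 P 1 to 3 and 11, 3 and 11 in Huh7 LR 1 to 3. The groups overlapped, and libraries of the same line differed by more than the lines did. The log2 fold change was -0.50 (SE 0.74, edgeR's quasi-likelihood test, Benjamini-Hochberg adjusted p = 0.616), with a 95% interval of the fold from 0.26 to 1.93, so a difference was not detectable at this depth. The sign depended on 1 library, since the log2 fold change was 0.36 without Huh7 P 3. A1BG shares exon bases with the antisense gene A1BG-AS1 (781 bases) and with another gene on its own strand (1622 bases), and reads of these genes cannot be told apart by unstranded counting.

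The windows of AMBP (chr9:114078251-114078550, minus strand) and A1BG (chr19:58353443-58353742, minus strand), both GRCh38.p14, are shown side by side as those of an abundant carrier and of the carrier with the lowest mean level. Capitals mark matches to the 5 motifs. The AMBP window held 4 CCAAT boxes and 1 forkhead core, and the A1BG window held none of the 5 motifs, which says only that these letters are not in it.
AMBP: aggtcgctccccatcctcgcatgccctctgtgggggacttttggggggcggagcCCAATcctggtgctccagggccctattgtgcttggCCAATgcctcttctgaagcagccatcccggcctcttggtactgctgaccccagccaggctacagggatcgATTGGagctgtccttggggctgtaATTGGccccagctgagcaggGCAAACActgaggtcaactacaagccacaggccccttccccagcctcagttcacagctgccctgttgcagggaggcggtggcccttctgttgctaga
A1BG: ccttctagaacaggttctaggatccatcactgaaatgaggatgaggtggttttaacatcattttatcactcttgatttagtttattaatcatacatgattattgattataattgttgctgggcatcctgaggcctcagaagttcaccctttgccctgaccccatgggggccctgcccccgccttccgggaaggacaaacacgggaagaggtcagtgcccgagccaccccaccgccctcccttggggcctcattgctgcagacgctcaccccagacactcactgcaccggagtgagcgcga

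Other plasma carriers moved in both directions. Of 18 tested, 8 were higher and 2 were lower past an adjusted p of 0.05 by edgeR's quasi-likelihood test after Benjamini-Hochberg adjustment (23.3% and 22.4% of all genes tested). In this list 2 were called higher, beside 4.43% of all genes tested, and the median log2 fold change was 0.58. The called genes were SERPINA7, which encodes thyroxine-binding globulin and had 37, 19 and 32 counts in Huh7 P 1 to 3 and 130, 313 and 265 in Huh7 LR 1 to 3, and HPX, which encodes the heme carrier hemopexin. The log2 fold change of SERPINA7 was 2.97 in counts and 1.11 under limma-trend on log2(FPKM + 1). HPX had 7.73, 8.72 and 8.80 FPKM in Huh7 P and 21.0, 26.1 and 25.2 FPKM in Huh7 LR, a rise of 2.81-fold. SELENOP, the selenium carrier and the most abundant of this list per length, rose by a log2 fold change of 0.62, from a mean of 233 to 373 FPKM. The lower genes were CP, the copper protein ceruloplasmin (log2 fold change -1.08), and LCN2, the siderophore binder lipocalin 2 (log2 fold change -2.18 at under 1 CPM). HP and HPR, which are near-identical and may share reads, had log2 fold changes of 0.67 and 0.69. PTGDS had no counts in any library.

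**Figure D5:**
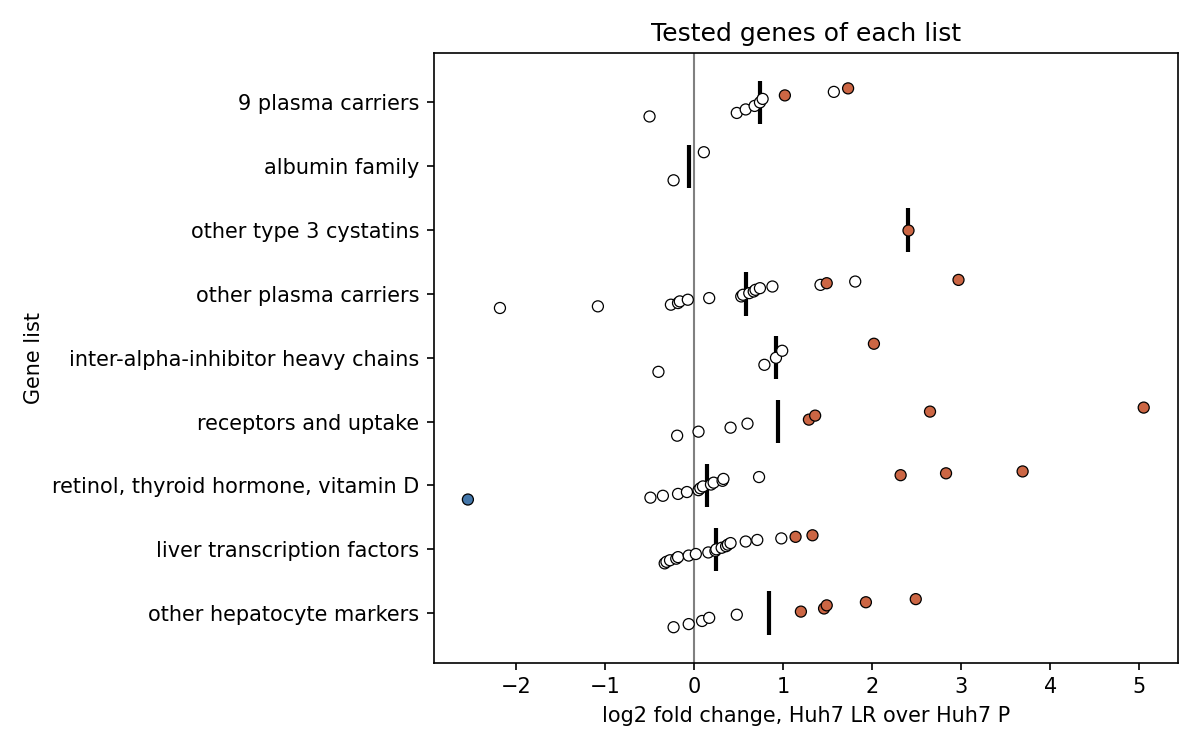
Log2 fold change of Huh7 LR over Huh7 P for each tested gene of the 9 plasma carriers and 8 related lists, where points are genes, filled points are called genes and thick vertical lines are list medians. The grey line is the median of all genes tested (0.00); the 9 carriers have a median of 0.74 and the receptors and uptake genes one of 0.94.

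A list of receptors and uptake genes, not all of them receptors of the 9 carriers, had 8 tested genes. Of these, 6 were higher at an adjusted p under 0.05 by edgeR's quasi-likelihood test after Benjamini-Hochberg adjustment (23.3% of all genes tested). TFRC and ASGR2 were the exceptions, and SCARB1 (log2 fold change 0.60) was among the 6. The median log2 fold change of the 8 was 0.94. None of the 8 was lower at that level (22.4% of all genes tested). Of the 8, 4 were called higher, beside 4.43% of all genes tested. The called genes included CUBN and LRP2, which encode the endocytic receptors cubilin and megalin. The others were TFR2, a transferrin receptor of hepatocytes that takes part in iron sensing, and ASGR1, a subunit of the asialoglycoprotein receptor. CUBN had 52, 16 and 42 counts in Huh7 P 1 to 3 and 819, 1520 and 1392 counts in Huh7 LR 1 to 3, a rise of 33.1-fold (95% interval 21.7 to 50.5) that still left it at a mean of 1.5 FPKM. The size of this change depended on the scale, since the log2 fold change of CUBN was 5.05 in counts, but 3.48 under limma-trend on log2(FPKM + 0.1) and 1.25 on log2(FPKM + 1). LRP2 rose 2.44-fold, from a mean of 17.1 to 42.6 FPKM. TFR2 had 0.783, 1.21 and 0.756 FPKM in Huh7 P 1 to 3 and 6.26, 4.96 and 5.83 FPKM in Huh7 LR 1 to 3.

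TFRC, the main cellular receptor for transferrin, had 83.9, 84.1 and 77.7 FPKM in Huh7 P 1 to 3 and 87.8, 80.7 and 90.3 FPKM in Huh7 LR 1 to 3, with overlapping groups and a fold of 1.03 (95% interval 0.94 to 1.14). The FPKM of TF divided by that of TFRC was 2.85, 3.59 and 3.66 in Huh7 P 1 to 3 and 4.12, 3.45 and 5.01 in Huh7 LR 1 to 3. This ratio overlapped between the lines, but it carries the varying length of TF, which was highest in Huh7 LR 2. In CPM, TF was 3381, 3908 and 3930 in Huh7 P 1 to 3 and 5184, 5133 and 5292 in Huh7 LR 1 to 3. TFRC was 460, 467 and 435 CPM in Huh7 P 1 to 3 and 473, 443 and 492 CPM in Huh7 LR 1 to 3. On this scale TF over TFRC was higher in every Huh7 LR library than in any Huh7 P library. ASGR1 had 25.9, 25.0 and 24.1 FPKM in Huh7 P and 71.5, 58.5 and 63.1 FPKM in Huh7 LR, a rise of 2.58-fold. Its partner subunit ASGR2, the most abundant gene of the list per length, had a log2 fold change of -0.19 with an adjusted p of 0.124 by edgeR's quasi-likelihood test after Benjamini-Hochberg adjustment, which became 0.0329 without Huh7 LR 2 at a log2 fold change of -0.27. FCGRT, the neonatal Fc receptor that salvages albumin from breakdown, rose by a log2 fold change of 0.41. STRA6, the receptor for RBP4, had no counts in any library, which allows up to 3 counts in each, or 0.042 to 0.0478 CPM for counting error alone.

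Genes that handle the ligands of these carriers did not move as 1 group. Of 16 tested genes of retinol, thyroid hormone and vitamin D handling, 5 were higher and 2 were lower past an adjusted p of 0.05 by edgeR's quasi-likelihood test after Benjamini-Hochberg adjustment, and the median log2 fold change was 0.15. These counts are read beside the 23.3% higher and 22.4% lower over all genes tested and say little about the list. Of the 16, 3 were called higher and 1 lower, beside 4.43% and 1.78% of all genes tested. Called higher were ALDH1A2, a retinoic acid synthesising enzyme (log2 fold change 3.69, from 0.398 to 5.12 mean CPM), DIO1, which activates thyroxine (2.83, from 1.15 to 8.14 mean CPM), and VDR, the vitamin D receptor (2.32, from 3.23 to 16.1 mean CPM). Under limma-trend on log2(FPKM + 1) these log2 fold changes were smaller, at 1.33, 1.76 and 1.40, and all 3 were still called. CYP26B1, which breaks down retinoic acid, was called lower, with a log2 fold change of -2.54 and means of 23.0 CPM in Huh7 P and 3.95 CPM in Huh7 LR. Under limma-trend on log2(FPKM + 1) its log2 fold change was -1.74, and it was still called. ALDH1A1, the most abundant gene of the list per length, fell by 0.49 on the log2 scale, from a mean of 2157 to 1568 FPKM. LRAT and CYP24A1 had no counts in any library.

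Among 19 liver transcription factors known for work on carrier promoters, 10 were higher and 3 were lower past an adjusted p of 0.05 by edgeR's quasi-likelihood test after Benjamini-Hochberg adjustment (23.3% and 22.4% of all genes tested), and the median log2 fold change was 0.25. The 2 genes called higher (beside 4.43% of all genes tested), DBP and HLF, encode PAR bZIP factors, and DBP takes its name from a site in the albumin promoter. DBP had 2.60, 2.73 and 3 FPKM in Huh7 P 1 to 3 and 7.65, 5.60 and 7.53 FPKM in Huh7 LR 1 to 3, a rise of 2.20-fold (95% interval 1.87 to 2.59). HLF had 0.857, 0.802 and 1.02 FPKM in Huh7 P and 2.91, 1.6 and 2.21 FPKM in Huh7 LR, with a log2 fold change of 1.33. In both genes the lowest Huh7 LR library, Huh7 LR 2, was still above all Huh7 P libraries. The call of HLF was lost without Huh7 P 1, Huh7 P 2, Huh7 P 3 or Huh7 LR 3, at adjusted p values of 0.00173, 0.0016, 0.0013 and 0.00112 by edgeR's quasi-likelihood test after Benjamini-Hochberg adjustment. It was also lost under limma-trend, with Benjamini-Hochberg adjusted p values of 0.00104 on log2(FPKM + 0.1) and 0.00133 on log2(FPKM + 1), where the log2 fold change was 0.76.

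CEBPA, the most abundant factor of the list per length, had 108, 109 and 106 FPKM in Huh7 P 1 to 3 and 156, 172 and 165 FPKM in Huh7 LR 1 to 3. These groups were well apart, and CEBPA rose 1.5-fold (95% interval 1.36 to 1.64, edgeR's quasi-likelihood test, Benjamini-Hochberg adjusted p = 5.56e-05). HNF4A, which binds many of these promoters in hepatocytes, had a log2 fold change of -0.06 in counts, with overlapping groups. Its FPKM also overlapped but leaned the other way, with 62.5, 66.3 and 55.6 in Huh7 P 1 to 3 and 51.0, 102 and 96.4 in Huh7 LR 1 to 3. The scales thus differed for HNF4A, as they did for TF, and the length behind the FPKM of HNF4A was not examined. ZHX2 and ZBTB20, known as repressors of AFP, had log2 fold changes of -0.27 and 0.71. Beside ZHX2, the lower factors were FOXA3, a forkhead protein (log2 fold change -0.20), and PROX1, a homeobox protein (-0.33). CEBPD, a C/EBP protein, had a log2 fold change of 0.98, just under 2-fold, with means of 10.1 CPM in Huh7 P and 19.9 CPM in Huh7 LR. Whether any of these factors acts on the carriers was not tested.

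Genes whose pattern over the 6 libraries lay closest to that of ALB were sought among 9368 annotated genes outside the 9 with a mean of at least 10 CPM, whatever their FPKM, by the Euclidean distance between log2(CPM + 1) values centred over the libraries. The 5 closest were CFB, which encodes complement factor B (distance 0.116), RWDD2A (0.12), PRKAB2, a subunit of AMP-activated kinase (0.12), ASAH1, the lysosomal acid ceramidase (0.126), and GUCY2C, a receptor guanylate cyclase (0.127). Their log2 fold changes ran from 0.70 for GUCY2C to 0.84 for CFB, and choice by this distance itself favours values near that of ALB. Of the carriers, TTR was closest to ALB (distance 0.257), followed by AMBP (0.33) and TF (0.339). AHSG, whose change was larger than that of ALB, lay at 1.21 and A1BG at 1. Adding 1 before the log compresses the values of genes under 1 CPM, so the distances of FETUB and A1BG cannot be ranked against those of the other carriers.

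Other hepatocyte markers moved unevenly. Of the 10 listed, 6 were higher at an adjusted p under 0.05 by edgeR's quasi-likelihood test after Benjamini-Hochberg adjustment (23.3% of all genes tested). Of these, 5 were called (APOA2, APOH, APOC3, FGB and GPC3), beside 4.43% called higher over all genes tested. The median log2 fold change of the 10 was 0.84. FGB, a fibrinogen chain, rose most among them, from a mean of 175 to 983 CPM (log2 fold change 2.49). SERPINA1 and APOB, among the most abundant hepatocyte transcripts, had log2 fold changes of 0.09 and 0.17 and overlapping groups. The summed level of the 10 markers was 28942, 32027 and 35140 CPM in Huh7 P 1 to 3 and 30227, 31746 and 33246 CPM in Huh7 LR 1 to 3. The groups overlapped in this sum, of which AFP was the largest part.

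Markers of other liver cell types were read beside the carriers. The summed leukocyte markers were 67.6, 67.7 and 62.4 CPM in Huh7 P 1 to 3 and 13.1, 14.0 and 10.1 CPM in Huh7 LR 1 to 3, with TYROBP and HLA-DRA at 0 in all 6 libraries. LYZ, which was called lower (log2 fold change -2.79), made up 65.5, 65.4 and 60.2 CPM of this sum in Huh7 P 1 to 3 and 9.71, 10.1 and 7.74 CPM in Huh7 LR 1 to 3, and CD14 most of the rest. The other tested leukocyte markers, CD14 and CD74, leaned upwards with overlapping groups (log2 fold changes 0.53 and 0.52, from means of 1.88 to 2.71 CPM and of 0.265 to 0.382 CPM), so the median log2 fold change of the 3 tested was 0.52. The summed endothelial markers were 38.8, 45.7 and 47.5 CPM in Huh7 P and 70.7, 71.2 and 65.0 CPM in Huh7 LR, nearly all of it PECAM1 (log2 fold change 0.64), with CDH5 and KDR at 0 in all 6 libraries. VWF, the other endothelial marker, had 0, 0 and 8 counts in Huh7 P 1 to 3 and 19, 26 and 21 in Huh7 LR 1 to 3, and both PECAM1 and VWF were higher at an adjusted p under 0.05 (0.000135 and 0.0179 by edgeR's quasi-likelihood test after Benjamini-Hochberg adjustment). The fibroblast and stellate markers summed to 2.19, 2.15 and 2.28 CPM in Huh7 P and 8.02, 5.02 and 5.55 CPM in Huh7 LR, with DCN at 0 in all 6 libraries. COL1A1 (log2 fold change 1.84) and PDGFRB (0.84) led this list and were both higher at an adjusted p under 0.05 (9.13e-05 and 0.00953 by the same edgeR test after Benjamini-Hochberg adjustment). COL1A1 was called, and its call was lost without Huh7 P 3 (adjusted p = 0.00105 by edgeR's quasi-likelihood test after Benjamini-Hochberg adjustment) and under limma-trend. The Benjamini-Hochberg adjusted p values of limma-trend were 0.00315 on log2(FPKM + 0.1) and 0.00783 on log2(FPKM + 1). The log2 fold change of COL1A1 was 1.85 without Huh7 P 3, but 1.38 on log2(FPKM + 0.1) and 0.56 on log2(FPKM + 1). The endothelial and the fibroblast and stellate sums were thus higher in Huh7 LR, as the carriers were, and the leukocyte sum was lower through LYZ alone. The part of these markers in the levels of the carriers was not tested.

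The cholangiocyte markers summed to 46.5, 53.8 and 54.0 CPM in Huh7 P 1 to 3 and 13.1, 17.4 and 15.2 CPM in Huh7 LR 1 to 3. KRT19, the keratin that leads this list, was called lower (log2 fold change -2.07) and CFTR, a chloride channel, was called higher (1.67, but 0.83 and not called under limma-trend on log2(FPKM + 1)). KRT19 and the carriers thus differed between the lines in opposite directions, and the part of the cholangiocyte markers in this was not tested. The 9 mitochondrial transcripts took 4.34%, 4.59% and 5.01% of counts in Huh7 P 1 to 3 and 4.35%, 5.31% and 4.37% in Huh7 LR 1 to 3, with overlapping groups and a median log2 fold change of -0.19. Of the 9, MT-CYB was higher (log2 fold change 0.62) and MT-ND1 and MT-ND2 were lower (-0.37 and -0.40) at an adjusted p under 0.05 (0.000382, 0.00324 and 0.00577 by edgeR's quasi-likelihood test after Benjamini-Hochberg adjustment), each with the lines apart in every library. The part of these transcripts in the levels of the carriers was not tested.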

How the data were processed

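The authors deposited 1 table with, for each gene and library, a whole-number read count that was not normalized and an FPKM value that the authors scaled for transcript length and library size. The submitters' processing notes name TopHat2, Cufflinks and DESeq and the mouse build mm10, with no role, while the identifiers are human Ensembl genes. The extraction label names an insect. The annotation and the use of strand are not given in the sources used here. Of 26218 lines, 34 hold annotation text and were left out. Between 2.86% and 3.35% of counts fell on loci with no annotated gene. All 19974 annotated identifiers are in GENCODE 29 (GRCh38), which gave positions and exons.

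The 9 members and the other gene lists were chosen with earlier results of these data known. Genes named are the 9 members, the called genes and the most abundant gene by FPKM of each other list, and the 5 genes most like ALB; others were named after their values were seen. Listed genes that are not named enter only the counts, medians and sums of their list, and the values of 1 transcription factor are left out on purpose. The count test used edgeR 4.0.16 under R 4.3.3 (filterByExpr with a minimum count of 10 and a minimum total of 15, TMM, quasi-likelihood test on the line, Benjamini-Hochberg adjustment over 17531 genes and loci). Each 95% interval was computed from a log2 fold change with its SE and the normal distribution. With so few samples such an interval is narrower than edgeR's quasi-likelihood test implies. For ASGR2 the interval of the fold, 0.767 to 0.996, excluded 1 at an unadjusted p of 0.0691 in that test. The call, an adjusted p under 0.001 and over 2-fold, takes its p level and fold from the study, whose methods do not say whether p was adjusted. Alternatives were DESeq2 size factors, library sizes without the 9 members, the DESeq2 1.42.0 Wald test, other count filters, a replicate block, limma-trend (limma 3.58.1) on log2(FPKM + 0.1) or log2(FPKM + 1), keeping genes that reached 0.5 FPKM in 3 or more libraries, a threshold of 0.05 alone and each library left out in turn. Replicates are described as independent samples; p-values measure the spread between these samples. Figures were drawn with matplotlib 3.10.9. The study's protein, drug and animal experiments were not used here.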

Additional observations from a re-analysis of the deposited data

How the results depend on the processing

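Of the 625 values of single genes under the alternatives, 620 kept their direction and side of an adjusted p of 0.05 or missed that level in both, 3 newly passed it (AFP with the replicate block and without Huh7 P 1, ASGR2 without Huh7 LR 2) and 2 no longer passed it (TF under both forms of limma-trend on FPKM). A1BG changed sign without Huh7 P 3 and passed the level in no alternative. Of the 60 counts, 50 stayed within 1.5 times their value. The number of carriers called higher was 1 with the replicate block, 1 to 2 when each library was left out, and 8 at an adjusted p under 0.05 with no fold threshold. The number of genes called higher was 268 with limma-trend on log2(FPKM + 1), whose pseudocount compresses changes of low genes, and 4093 at an adjusted p under 0.05; the numbers called lower were 84 and 3923.

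The replicate numbers of the lines did not pair the samples: same-numbered libraries correlated at 0.029, 0.0314 and 0.0317 in their deviations from the group means over 17531 genes, although each library correlated best with its own number. With the number as a block, 783 genes were called higher and 316 lower, and GC lay just under 2-fold and was not called, and the cause was not tested. FETUB could not be fitted by limma-trend and A1BG neither there nor with at least 10 counts in every library, since the filters removed them. No scaling moved the median of all genes by more than 0.04. The depth limits FETUB and A1BG, which had 3 to 65 counts per library, and the FPKM of TF depends on a length that varied between libraries. Protein levels were not analysed here.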
